A study of Mus musculus with 9 samples.

Results

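All 6 mice given streptozotocin (STZ) were compared with the 3 mice of normal glucose tolerance (NGT), and the 6 formed 1 group whether or not they were treated afterwards. They are 6 of the 9 mice of the series, chosen by their labels alone. All 9 were female C57BL/6J mice, adult at the start. NGT mice received vehicle instead of STZ and, by the labels, saline. T1D mice received a single injection of STZ, which destroys the insulin-producing beta cells, and then saline. Lira mice received the same STZ injection and then daily liraglutide, which activates the GLP-1 receptor and is used as a glucose-lowering drug, for 8 weeks by the labels of 2 of them and 9 weeks by that of Lira mouse 3. The STZ group therefore held 3 T1D and 3 Lira mice, and the effects of the STZ injection and of the diabetes that followed cannot be told apart. RNA of 1 tibia per mouse was sequenced after the bone had been cleaned of muscle and connective tissue.

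Insulin deficiency is known to lower bone formation and bone mass, and bone holds osteoblasts that lay down matrix, osteocytes embedded in it, osteoclasts that resorb it, and marrow with its blood-forming and immune cells. Ribosomal proteins and the subunits of the mitochondrial respiratory chain are among the most coordinately expressed gene groups of any tissue, and growth signals such as insulin act on both. Cytokine receptors signal through JAK kinases and STAT factors, which induce their own inhibitors, and interferons use the same kind of pathway to induce antiviral and antigen-presenting genes.

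The libraries held between 13086373 and 16528394 counts. NGT libraries were on the shallow side, and the difference in total counts to the STZ libraries gave p = 0.0714 (exact permutation test over the 84 ways of dividing the mice, two-sided, for which 0.0119 is the smallest possible value). Every library contained a large amount of muscle RNA, with 17.7% to 30.4% of counts in a list of 34 muscle genes, and this share did not differ detectably between STZ and NGT mice (exact permutation p = 0.583). Bone-cell markers varied widely between libraries. The 5 osteoblast markers summed to 109.6 to 852 CPM (counts scaled to library size) in NGT mice and 231 to 3642 CPM in STZ mice. In NGT mouse 2, Col1a1 made up 89.8 of the 109.6 CPM, with Bglap and Sp7 at 0 and Ibsp at 0.155 CPM. Lira mouse 2 had 1.01 CPM of Bglap and 0.389 CPM of Sp7. The 4 osteoclast markers summed to 7.27 CPM in NGT mouse 2, and its 4 neutrophil markers to 3.48 CPM. The 4 osteocyte markers stayed between 0.779 and 13.5 CPM in all 9 mice. NGT mouse 1, T1D mouse 1 and Lira mouse 3 stood apart from the other libraries, with TMM scaling factors of 1.21, 1.25 and 1.12 against 0.883 to 0.995 in the other 6. Many results below that rest on T1D mouse 1 or Lira mouse 3 are also given without these 2 mice, and several list medians and genes without NGT mouse 1.

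In the STZ mice, no single gene passed the threshold against NGT. Of 13960 tested genes, 0 (0%) had an adjusted p-value under 0.05, and none therefore was a DEG with a fold change over 2 (edgeR, two-sided quasi-likelihood test, Benjamini-Hochberg adjusted, lowest adjusted p = 0.995). DESeq2, limma-voom with sample weights and limma on log2(FPKM + 1) also called 0 genes. Without adjustment, 222 genes had p under 0.05, of which 108 had higher values in STZ mice (0.774%) and 114 lower values (0.817%). The corresponding numbers were 331 with DESeq2, 1006 with limma-voom and 203 with limma on log2(FPKM + 1). The split depended on the method, with 197 higher and 134 lower in DESeq2. It was 60 and 150 with library size in place of TMM, and 42 and 161 with limma on log2(FPKM + 1). When single mice were left out of the edgeR fit, the total ran from 91 (without NGT mouse 2) to 666 (without NGT mouse 1). Where no gene differs, a share of about 0.05 is expected under this threshold, and edgeR with all mice gave fewer. The typical spread between mice was wide, with a biological coefficient of variation of 0.431.

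A stricter description of direction asks that all 6 STZ mice lie on one side of all 3 NGT mice. All 6 were above all 3 for 62 genes (0.444% of those tested) and below all 3 for 52 genes (0.372%). This split depended on the scaling, since 29 genes were above and 131 below when CPM were computed on library size alone, and 24 were above and 132 below in FPKM. It also depended on single mice, since the 114 genes became 1551 without NGT mouse 1 and 167 to 468 without any other mouse, and a separation is easier to reach with fewer mice. For a gene unrelated to the groups, all 6 lie above all 3 in 1 of the 84 ways of dividing the mice, a share of 0.0119. The same share holds for below, and both shares seen with all mice were smaller. The log2 fold change was above 0 for 56.5% of the tested genes, with a median of 0.04. A fold change over 2 together with no overlap was seen in 11 genes with higher and 4 with lower values in STZ mice. In bulk RNA, fewer cells of a type and less RNA per cell cannot be told apart, and all values below are levels of the whole tibia sample. CPM values are scaled by edgeR's TMM factors, and unadjusted p-values are from edgeR's quasi-likelihood fit, in which the lowest adjusted p of any gene rounds to 0.995.

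**Figure D1:**
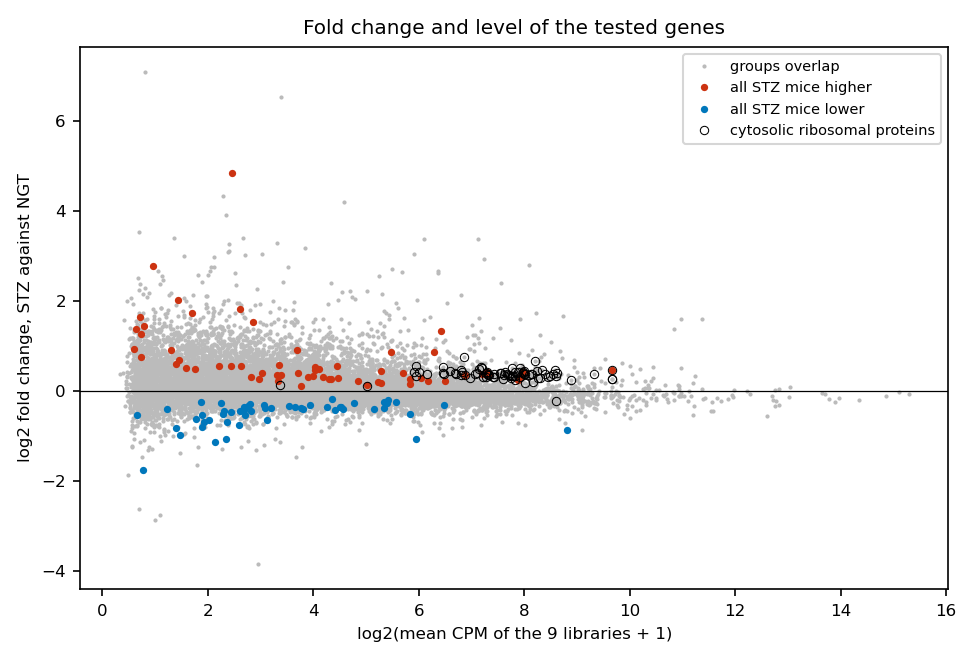
Log2 fold change of STZ against NGT mice on the vertical axis against log2(mean CPM + 1) of the 9 libraries on the horizontal axis, 1 point per tested gene (13960). Red points are the 62 genes with all STZ mice above all NGT mice, blue points the 52 with all STZ mice below, and open circles the cytosolic ribosomal proteins, which lie in a narrow band above 0 with 1 exception below it.

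Cish, a STAT-induced inhibitor of cytokine receptor signaling (gene 12700), had the lowest unadjusted p-value among genes that were higher in all 6 STZ mice. It measured 2.41, 2.01 and 1.27 CPM in the 3 NGT mice and 4.19 at the lowest, 5.13 at the median and 10.9 at the highest in the STZ mice. The highest values were those of T1D mouse 3 and Lira mouse 1, which were almost equal. The fitted difference was 3.54-fold (log2 fold change 1.82 ± 0.45 SE, unadjusted p = 0.00253), with a log2 fold change of 1.76 for T1D against NGT and 1.89 for Lira against NGT, which share the NGT mice. Without T1D mouse 1 and Lira mouse 3 it was 1.98.

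Ifit1, an interferon-induced antiviral protein (gene 15957), was likewise above NGT in every STZ mouse. Its values were 3.24, 2.40 and 2.69 CPM in NGT mice and ranged from 3.60 over a median of 6.00 to 17.4 CPM in STZ mice. The top values were those of T1D mouse 1 and Lira mouse 3, and the log2 fold change of 1.53 ± 0.53 SE (unadjusted p = 0.0174) was 0.80 without these 2 mice.

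The promoters of Cish and Ifit1 are shown because the 2 genes are textbook targets of STAT factors and of interferon and separated the STZ from the NGT mice. The 250 bases before the annotated start are from RefSeq on build GRCm38.p6, on the plus strand for both, at chr9:107296409-107296658 for Cish and chr19:34640639-34640888 for Ifit1, whereas the submitters' processing notes name mm9 for the counts. Capitals mark matches on either strand to TTCNNNGAA, the STAT-type motif, in Cish, where there is none, and to the interferon-type motif (GAAA, any 2 bases, GAAA) in Ifit1.
Cish: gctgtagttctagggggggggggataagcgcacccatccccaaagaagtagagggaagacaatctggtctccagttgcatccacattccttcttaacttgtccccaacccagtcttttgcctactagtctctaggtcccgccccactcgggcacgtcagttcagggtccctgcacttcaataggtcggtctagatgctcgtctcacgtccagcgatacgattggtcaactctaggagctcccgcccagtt
Ifit1: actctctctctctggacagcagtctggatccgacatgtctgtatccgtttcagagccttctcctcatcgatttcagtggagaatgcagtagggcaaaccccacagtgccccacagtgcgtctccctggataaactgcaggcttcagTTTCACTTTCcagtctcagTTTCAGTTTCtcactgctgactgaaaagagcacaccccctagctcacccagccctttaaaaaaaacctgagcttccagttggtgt

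Ifit1 held 2 matches to the interferon-type motif, starting 104 and 85 bases before the transcription start and each in the reverse orientation. Cish held 0 matches to the STAT-type motif in this window of 250 bases before a single annotated start. Other starts and more distant bases were not searched. Of 27025 mouse promoters of the same length, 3.04% held the interferon-type motif and 7.18% the STAT-type motif, on either strand. RefSeq promoters were matched for 15 of the 24 leading genes described in the next paragraphs. Among these 15, the interferon-type motif was found in Ifit1 and Ddost and the STAT-type motif in Zfp180. These matches are matches of letters, and binding was not measured.

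Other leading genes that were higher in all STZ mice were Ier5, Smad7, Otulin and Iffo1. Ier5, an immediate-early gene that responds to growth and stress signals (gene 15939), measured 8.44, 8.28 and 6.10 CPM in NGT mice and 9.62, 14.9 and 18.1 CPM (lowest, median, highest) in STZ mice, a log2 fold change of 0.90 ± 0.24 SE (unadjusted p = 0.0045). Smad7, the inhibitory SMAD that limits TGF-beta and BMP signaling (gene 17131), was tightly grouped in NGT mice at 6.98, 7.04 and 6.65 CPM and lay between 8.40 and 12.3 CPM in STZ mice, with a median of 9.79 CPM and a log2 fold change of 0.57 ± 0.18 SE. Otulin, which removes linear ubiquitin chains and so restrains NF-kB signaling (gene 432940), had 15.8, 17.9 and 13.5 CPM in NGT mice against 18.6, 22.4 and 28.0 CPM in STZ mice. Its log2 fold change was 0.56 ± 0.17 SE. The gap between the groups was narrow for Otulin, where T1D mouse 3 at 18.6 CPM came close to NGT mouse 2 at 17.9 CPM. Iffo1, an intermediate filament family member (gene 320678), had a log2 fold change of 0.54 ± 0.15 SE, from 13.8, 10.6 and 11.1 CPM in NGT mice to between 15.5 and 20.8 CPM in STZ mice.

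Cebpd and Errfi1, both known to be induced by glucocorticoids, were higher in all STZ mice and highest in the same animal, Lira mouse 1. Cebpd, a transcription factor of the C/EBP family (gene 12609), measured 33.3, 54.9 and 37.3 CPM in NGT mice and 69.8, 78.1 and 248 CPM at the lowest, median and highest in STZ mice. Errfi1, a feedback inhibitor of the EGF receptor (gene 74155), measured 39.4, 65.4 and 45.3 CPM in NGT mice and 66.1, 78.8 and 169 CPM in STZ mice. For Errfi1 the lowest STZ mouse was less than 1 CPM above the highest NGT mouse. The log2 fold changes were 1.33 ± 0.46 SE for Cebpd and 0.87 ± 0.33 SE for Errfi1, and without Lira mouse 1 they were 0.88 and 0.60.

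Of the remaining genes with higher values, Rps25 is a protein of the small ribosomal subunit, Ddost a subunit of the oligosaccharyltransferase that glycosylates proteins in the endoplasmic reticulum, and Ppp1r14b an inhibitor of a protein phosphatase. Rps25 measured 117, 123 and 143 CPM in NGT mice and 148, 166 and 204 CPM in STZ mice. Ddost lay at 45.0, 41.3 and 40.5 CPM in NGT mice and at 45.6, 54.8 and 69.2 CPM in STZ mice, and Ppp1r14b at 28.9, 31.2 and 31.6 CPM against 31.8, 41.2 and 54.7 CPM. Their log2 fold changes were between 0.39 and 0.45, and for Ddost and Ppp1r14b the lowest STZ mouse was within 1 CPM of the highest NGT mouse. Gm2260 was at 0 in 2 NGT libraries and at 0.696 CPM in NGT mouse 2, while the STZ mice ranged from 1.07 over 2.54 to 27.6 CPM, with T1D mouse 1 far above the rest. As up to 3 counts are compatible with a 0, which is 0.229 CPM in NGT mouse 1 and 0.210 CPM in NGT mouse 3, no fold change is given for it.

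**Figure D2:**
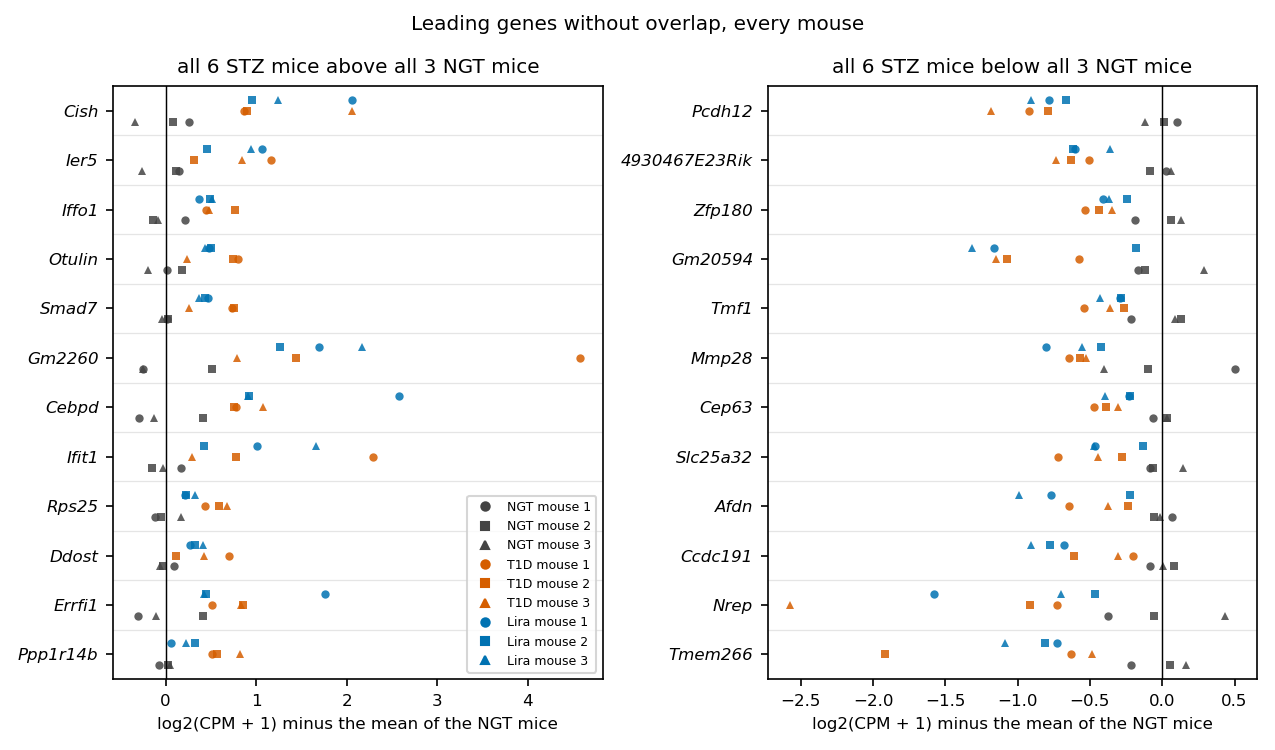
The 24 leading genes without overlap, 12 per direction, as log2(CPM + 1) in each mouse minus the mean of the NGT mice, with grey for NGT, orange for T1D and blue for Lira and the symbol giving the mouse number. Genes were chosen because the groups do not overlap, so the separation is the rule and not a result. Single mice such as Lira mouse 1 for Cebpd, T1D mouse 1 for Gm2260 and T1D mouse 3 for Nrep lie far from the others of their group.

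Pcdh12, an adhesion protein of the protocadherin family that is known from endothelial cells (gene 53601), had the lowest unadjusted p-value of all tested genes and was lower in every STZ mouse. It measured 6.79, 6.34 and 5.70 CPM in NGT mice and 2.20, 3.04 and 3.58 CPM at the lowest, median and highest in STZ mice. Both groups were compact, with an SD of 0.548 CPM around a mean of 6.28 CPM in NGT mice and no STZ mouse above 3.58 CPM. The level was 2.10-fold lower in STZ mice (log2 fold change -1.07 ± 0.22 SE, unadjusted p = 0.00066), at -1.19 for T1D and -0.96 for Lira against the same NGT mice. With DESeq2, Pcdh12 had an adjusted p of 0.0754, the lowest of any gene. Without T1D mouse 1 and Lira mouse 3 its log2 fold change was -1.07. Of 23 endothelial genes 11 were above 0 and 12 below, with a median log2 fold change of -0.004 beside 0.04 over all tested genes.

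Afdn, Slc25a32, Tmf1 and Cep63 were also lower in all STZ mice. Afdn (afadin), which ties adherens junctions to actin (gene 17356), measured 73.5, 67.4 and 69.3 CPM in NGT mice and 34.7, 49.1 and 60.0 CPM in STZ mice, a log2 fold change of -0.52 ± 0.18 SE. Slc25a32, the mitochondrial folate carrier (gene 69906), lay at 23.04, 23.4 and 27.2 CPM in NGT mice and at 14.5, 17.6 and 22.2 CPM in STZ mice. Tmf1, a Golgi protein (gene 232286), lay at 39.9, 51.0 and 49.6 CPM against 31.7, 37.0 and 38.6 CPM. For Slc25a32 and Tmf1 the lowest NGT mouse was within 2 CPM of the highest STZ mouse. Cep63, a centrosomal protein (gene 28135), differed by a log2 fold change of -0.35 ± 0.12 SE, from 20.3, 21.8 and 21.9 CPM to between 15.1 and 18.1 CPM.

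Mmp28, a secreted metalloproteinase, Nrep, a small protein known from neural and wound repair, and Tmem266, a membrane voltage sensor, were lower by larger factors. Mmp28 measured 9.77, 6.11 and 4.75 CPM in NGT mice and between 3.35 and 4.67 CPM in STZ mice. NGT mouse 3 was within 0.1 CPM of the highest STZ mouse, and the log2 fold change of -0.75 was -0.41 without NGT mouse 1. Nrep measured 69.7, 87.1 and 123 CPM in NGT mice and 14.4, 51.1 and 65.6 CPM in STZ mice, with T1D mouse 3 the lowest, a log2 fold change of -1.07 ± 0.40 SE. Tmem266 measured 4.38, 5.49 and 6.02 CPM in NGT mice and 0.655, 2.68 and 3.47 CPM in STZ mice, a log2 fold change of -1.13 ± 0.42 SE. Gm20594, a predicted gene at high level here, had 565, 582 and 772 CPM in NGT mice and 254, 293 and 560 CPM in STZ mice. In STZ mice 5 of 6 were at or under 424 CPM and Lira mouse 2 lay near the NGT range. The remaining named genes, 4930467E23Rik, Zfp180 and Ccdc191, had log2 fold changes of -0.64, -0.41 and -0.69. How reads shared between near-identical copies were assigned is not given in the sources used here, so the predicted genes are uncertain.

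Most cytosolic ribosomal proteins had log2 fold changes above 0, with 2 of the 6 STZ mice inside the NGT range of the list mean. Of 80 tested, 79 had a log2 fold change above 0 (56.5% of all tested genes did), 16 with an unadjusted p-value under 0.05 (0.774% over all tested genes) and none lower, and the median was 0.37 with quartiles of 0.32 and 0.42, beside 0.04 over all tested genes. None passed the adjusted threshold. All 6 STZ mice were above all 3 NGT mice for 6 of them (0.444% over all tested genes). Rpl8 measured 206, 194 and 217 CPM in NGT mice and 228, 261 and 346 CPM in STZ mice, with a log2 fold change of 0.41 ± 0.17 SE. Rpl11 had 142, 119 and 134 CPM against 143, 168 and 211 CPM, and Rps13 had 95.4, 99.4 and 102 CPM against 106, 126 and 145 CPM. In Rpl11 and also in Rpl19 the lowest STZ mouse stood only just above the highest NGT mouse. The other 2 members without overlap are Rps25, described above, and Rplp0, at 598, 658 and 692 CPM against 708, 834 and 1270 CPM. The 2 most abundant members by FPKM did not separate the groups, with log2 fold changes of 0.27 ± 0.18 SE for Rps2 and 0.24 ± 0.21 SE for Rps24. When single mice were left out, these ran from 0.175 to 0.37 for Rps2 and from 0.12 to 0.32 for Rps24.

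The ribosomal protein values were larger in T1D than in Lira mice, a difference that was not tested. The mean log2(CPM + 1) of the 80 genes was 7.29, 7.19 and 7.41 in NGT mice, 7.83, 7.63 and 7.95 in T1D mice and 7.40, 7.30 and 7.75 in Lira mice. Every T1D mouse was above every NGT mouse, while Lira mice 1 and 2 lay inside the NGT range. The median log2 fold change of the members was 0.53 for T1D against NGT and 0.19 for Lira against NGT, which share the NGT mice. Leaving out each mouse in turn gave medians of 0.31 to 0.44, leaving out T1D mouse 1 and Lira mouse 3 gave 0.27, and with the muscle or the erythroid share as a covariate it was 0.35 or 0.32. Many ribosomal protein genes have processed pseudogenes with near-identical sequence, so that counts of single members are uncertain.

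Ribosomal protein genes are known for transcripts that start with a C followed by a run of pyrimidines, a feature through which growth signals control their translation. By RefSeq starts on GRCm38.p6, the start base is C and the next 4 bases are each C or T in 13 of the 59 tested ribosomal protein genes with a sequence (22%), beside 2.34% of the 10879 tested genes with a sequence. Among the 45 genes with a sequence that were higher in all STZ mice it was found in 0, and among the 39 that were lower in 2. Only the bases at a single annotated start per gene were read, so a start annotated a few bases off would be missed. RNA-seq of total levels does not measure translation.

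Subunits of oxidative phosphorylation, encoded in the nucleus, mostly had log2 fold changes below 0. Of 79 tested, 75 were below 0, the median log2 fold change was -0.19 with quartiles of -0.25 and -0.14, and 1 member, Ndufc1, had a lower value with an unadjusted p-value under 0.05 (0.817% over all tested genes). Ndufc1, a subunit of complex I (gene 66377), measured 112, 135 and 176 CPM in NGT mice and 90.4, 101.3 and 129 CPM in STZ mice, and the groups overlapped. The most abundant members by FPKM, Atp5b and Cox6a2, had log2 fold changes of -0.15 ± 0.27 SE and -0.10 ± 0.22 SE. No member separated the groups. The mean level of the list was 7.46, 7.71 and 7.76 in NGT mice, 7.36, 7.42 and 7.39 in T1D mice and 7.47, 7.88 and 7.18 in Lira mice, so that T1D mice lay below all NGT mice and Lira mice spanned both. The median ranged from -0.31 without Lira mouse 2 to -0.13 without NGT mouse 3 and was -0.16 with the muscle share as a covariate. The muscle gene share was lowest in T1D mouse 1 at 17.7%, NGT mouse 1 at 21.0% and Lira mouse 3 at 21.2%.

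In the list for the unfolded protein and integrated stress response, 2 of 28 members, Hspa5 and Slc3a2, were higher in all STZ mice (0.444% over all tested genes). Of this list, 25 were above 0 with a median of 0.25, which was 0.10 without T1D mouse 1 and Lira mouse 3 and 0.15 without NGT mouse 3, and 0 had an unadjusted p-value under 0.05. Hspa5 (BiP), the main chaperone of the endoplasmic reticulum, measured 220, 215 and 187 CPM in NGT mice and 224, 246 and 274 CPM in STZ mice. Slc3a2, the heavy chain of an amino acid transporter and a target of ATF4, measured 58.2, 56.4 and 53.9 CPM against 62.4, 63.4 and 88.1 CPM. Eif4a1, the helicase of the cap-binding complex, which was picked after its values were seen, measured 126, 128 and 114 CPM against 128, 154 and 203 CPM. For all 3 genes the groups touched within a few CPM. Of 24 heat shock proteins and chaperones 14 were below 0 with a median of -0.02, and Hsph1, the 1 member with an unadjusted p-value under 0.05 (0.817% of all tested genes were so and lower), had a log2 fold change of -0.54 ± 0.24 SE. The proteasome list was centred on 0 as well, with 21 of 46 above 0 and a median of -0.02, and with library size in place of TMM both medians were above 0, at 0.03 and 0.05.

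**Figure D3:**
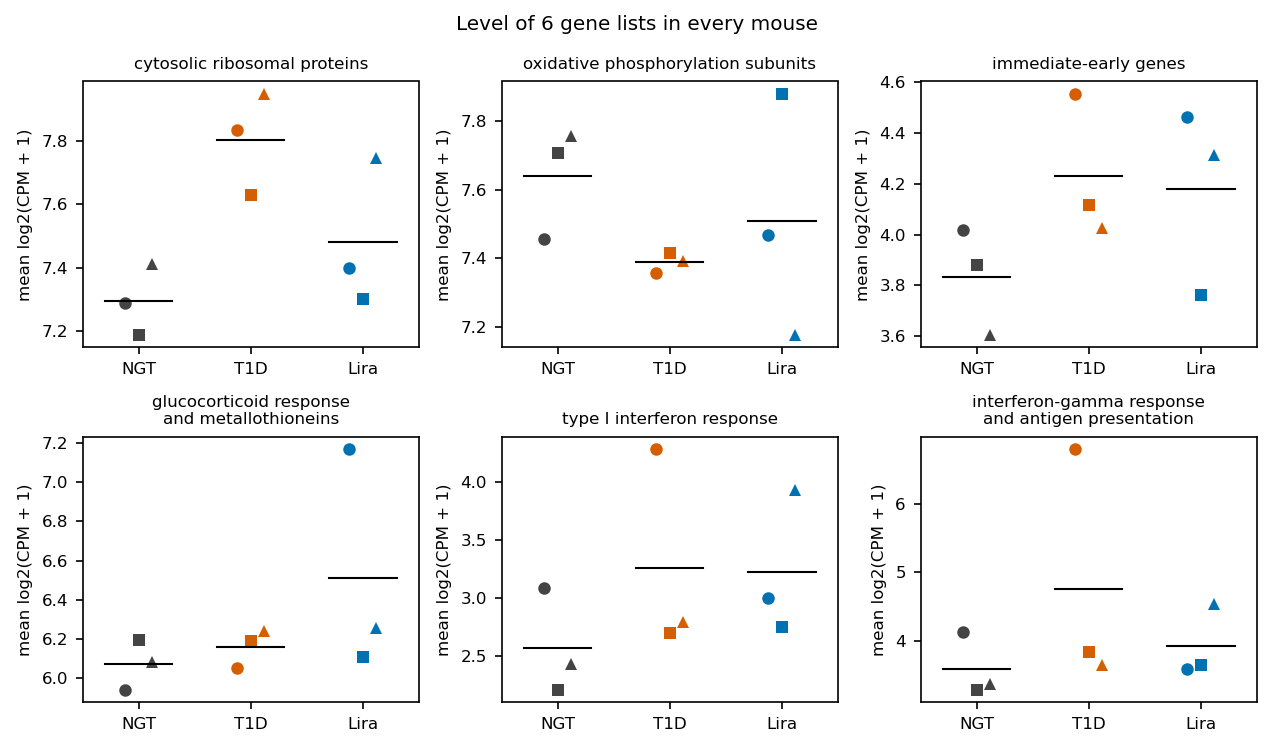
Mean log2(CPM + 1) of 6 gene lists in every mouse, by group, with the symbol giving the mouse number (circle 1, square 2, triangle 3) and a line at the group mean. In each list at least 1 STZ mouse lies inside the NGT range, and T1D mouse 1 is the highest in both interferon lists, at 4.29 and 6.81.

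Immediate-early genes, the first to be transcribed after growth factors, stress or dissection, included members in both directions. Of 27 tested, 24 were above 0 with a median of 0.59. Unadjusted p-values were under 0.05 for Ier5, Fos, Fosl2, Junb and Klf6 with higher values (0.774% over all tested genes) and for Nr4a3 with lower values (0.817%). Ier5 and Ier3 were the 2 members without overlap (0.444%). Junb, an AP-1 subunit (gene 16477), measured 9.77, 5.80 and 4.99 CPM in NGT mice and 8.18, 13.9 and 20.9 CPM in STZ mice, a log2 fold change of 1.01 ± 0.33 SE. Fosl2 had 20.1, 14.8 and 15.8 CPM against 17.6, 25.4 and 52.2 CPM, and Klf6, a zinc-finger factor, had 72.7, 58.5 and 53.4 CPM against 63.4, 78.4 and 126 CPM. All 3 overlapped because of NGT mouse 1, which was the highest NGT mouse in each. Nr4a3, an orphan nuclear receptor (gene 18124), had 12.1, 30.8 and 18.5 CPM in NGT mice and 3.79, 6.09 and 15.1 CPM in STZ mice, a log2 fold change of -1.48 ± 0.43 SE. Its relative Nr4a1 lay at -0.51 ± 0.33 SE, and at -0.74 without NGT mouse 1 and -0.31 without NGT mouse 2. Ier3 separated the groups by a narrow margin, from 5.27, 5.80 and 4.43 CPM to between 5.86 and 7.28 CPM. The median of the list was 0.35 without T1D mouse 1 and Lira mouse 3 and 0.90 without NGT mouse 1.

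The list for glucocorticoid response and metallothioneins had 18 of 27 members above 0 and a median of 0.33, and this median was 0.17 without Lira mouse 1 and 0.39 without T1D mouse 1 and Lira mouse 3. Besides Cebpd and Errfi1, Ddit4 (REDD1), an inhibitor of mTORC1 (gene 74747), had an unadjusted p-value under 0.05 with a higher value (0.774% over all tested genes). It measured 17.1, 36.7 and 36.9 CPM in NGT mice and 22.9, 65.0 and 254 CPM in STZ mice, with overlap. The list mean was 7.17 in Lira mouse 1 and between 5.94 and 6.25 in the other 8 mice, so that NGT and STZ mice other than Lira mouse 1 were mixed.

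Interferon-related genes had log2 fold changes above 0, with the highest levels in T1D mouse 1 and Lira mouse 3. All 28 type I interferon genes had a log2 fold change above 0, with a median of 0.91, and 4 had an unadjusted p-value under 0.05 (0.774% over all tested genes). Besides Ifit1 these were Irf7, the factor that amplifies type I interferon, and the induced genes Ifi44 and Oasl1. Irf7 measured 6.98, 3.71 and 4.83 CPM in NGT mice and 6.94, 9.17 and 32.2 CPM in STZ mice, with the lowest STZ mouse just under NGT mouse 1. Ifi44 measured 1.40, 1.16 and 1.98 CPM against 1.87, 3.27 and 8.81 CPM, and Oasl1 1.65, 0.619 and 0.871 CPM against 1.05, 2.29 and 5.40 CPM. The list mean was 3.08, 2.20 and 2.42 in NGT mice and 4.29, 2.69, 2.79, 2.997, 2.75 and 3.93 in T1D mice 1 to 3 and Lira mice 1 to 3. The median of the list was 0.15 without T1D mouse 1 and Lira mouse 3 and 1.37 without NGT mouse 1.

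All 32 tested genes of the interferon-gamma response and antigen presentation were above 0, with a median of 1.27, yet none had an unadjusted p-value under 0.05 and none separated the groups. Cd74, the invariant chain of MHC class II, measured 81.0, 25.7 and 39.8 CPM in NGT mice and 46.9, 74.4 and 1133 CPM in STZ mice. B2m, the light chain of MHC class I, measured 253, 129 and 110 CPM against 140, 163 and 1458 CPM. In both the highest value was that of T1D mouse 1. The median of the list was 0.29 without T1D mouse 1 alone and -0.02 without T1D mouse 1 and Lira mouse 3, and B2m then had a log2 fold change of -0.14. With NGT mouse 1 left out, the list median was 1.86 and the log2 fold change of B2m 1.71.

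Macrophage genes had a median log2 fold change of 1.59, with 20 of 21 above 0. It was 0.53 without T1D mouse 1, 0.33 without T1D mouse 1 and Lira mouse 3 and 2.80 without NGT mouse 1. Siglec1 (CD169), a marker of resident macrophages, and Cd14, the lipopolysaccharide co-receptor, had unadjusted p-values under 0.05 (0.774% over all tested genes). Siglec1 measured 1.21, 0.464 and 0.396 CPM in NGT mice and 0.917, 2.45 and 6.58 CPM in STZ mice. Its log2 fold change of 2.14 ± 0.72 SE was 1.62 without T1D mouse 1 and Lira mouse 3 and 2.83 without NGT mouse 1. Cd14 had 1.40, 0.619 and 0.633 CPM against 1.48, 1.78 and 9.19 CPM, without overlap (0.444% over all tested genes). The abundant lysosomal genes Lyz2 and Ctss had log2 fold changes of 1.59 ± 1.22 SE and 3.37 ± 1.66 SE with all mice. These were -0.52 and 0.42 without T1D mouse 1 and Lira mouse 3, and 2.93 and 4.57 without NGT mouse 1. Lgmn, a lysosomal protease picked after its values were seen, was higher in all STZ mice, at 30.6, 29.2 and 23.8 CPM against 34.8, 37.0 and 120 CPM.

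The medians of marrow and nerve lists depended on single animals. Erythroid genes had 26 of 28 members above 0 and a median of 1.25, which was 0.31 without Lira mouse 3 and 0.42 without T1D mouse 1 and Lira mouse 3. Leaving out NGT mouse 1 or 2 gave 2.51 or 0.72. Hba-a1, alpha globin, ranged from 135 to 2284 CPM in NGT mice and from 166 to 10702 CPM in STZ mice, with Lira mouse 3 the highest. Hba-a1 and Hba-a2 are near-identical copies whose reads cannot be separated with confidence. Neutrophil genes had 22 of 23 above 0 (median 0.58) and B cell genes 21 of 21 (median 0.81), and without T1D mouse 1 and Lira mouse 3 these medians were -0.71 and -0.54. Without NGT mouse 1 they were 2.51 and 2.14, and without Lira mouse 3 alone -0.42 and -0.33. Without NGT mouse 2 they were 0.005 and 0.28. Schwann cell and myelin genes had 17 of 17 above 0 and a median of 0.98, which was -0.23 without T1D mouse 2 and 1.85 or 0.65 when NGT mouse 2 or 3 was left out. The list mean was 4.84 in that mouse and between 1.75 and 3.21 in the other 8. None of these 4 lists had a member with an unadjusted p-value under 0.05.

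**Figure D4:**
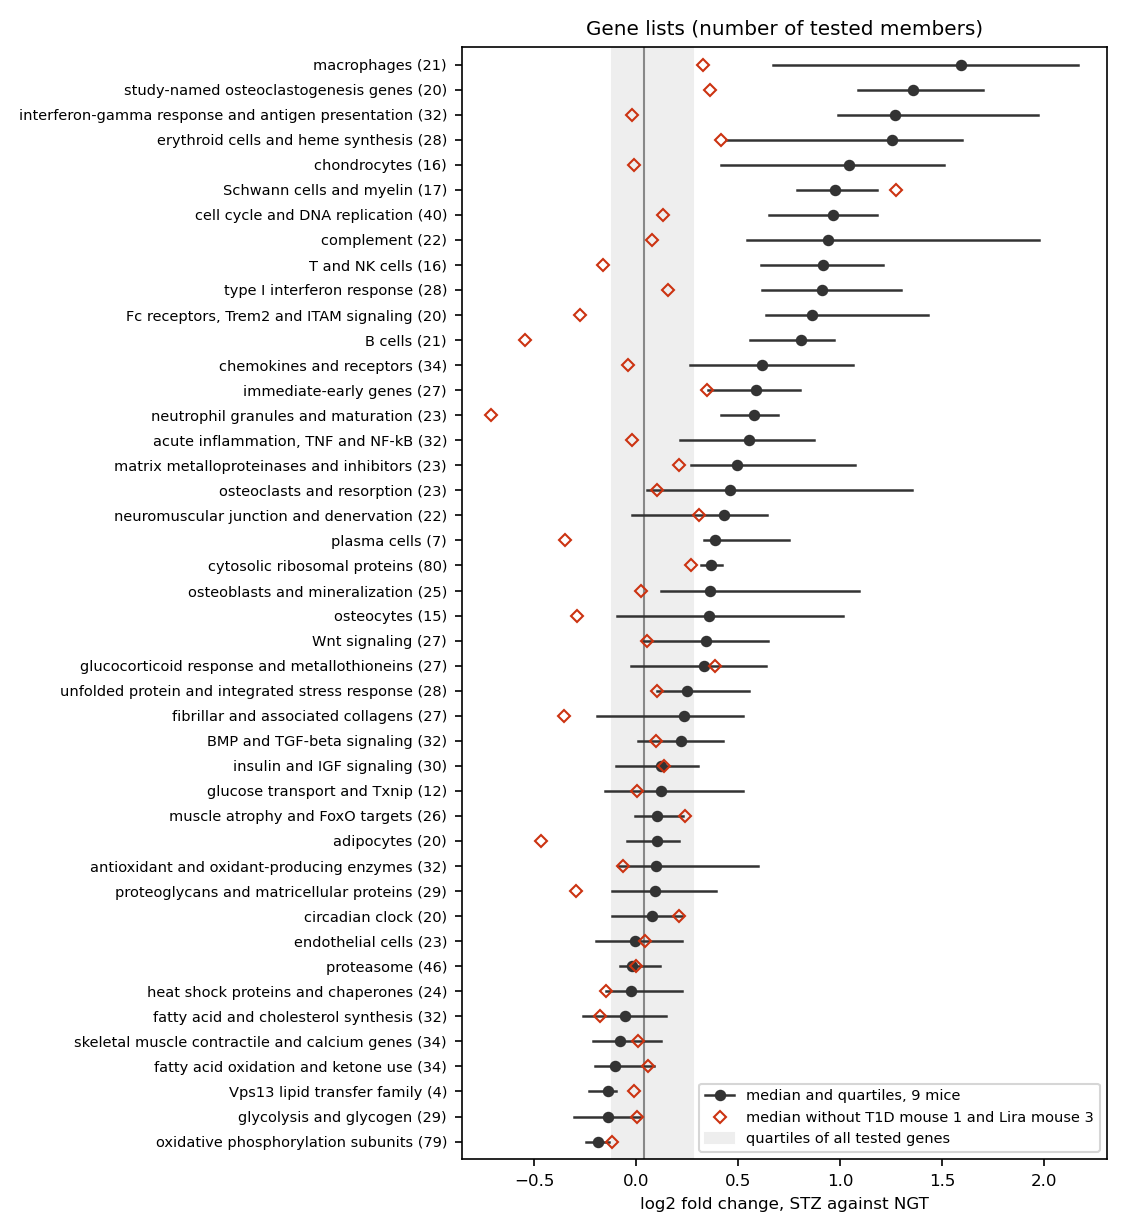
Median (point) and quartiles (line) of the log2 fold change of STZ against NGT mice for 44 gene lists, with the number of tested members, and the median without T1D mouse 1 and Lira mouse 3 (red diamond). The grey band spans the quartiles of all tested genes and the grey line their median of 0.04. With all mice 35 lists have a median above 0, and 25 do without the 2 mice. The median of all tested genes was then -0.03, so the grey line and band apply to the points and not to the diamonds.

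The osteoclastogenesis and RT-qPCR genes that the study names bear on bone resorption. Of 20 tested, 19 were above 0 with a median of 1.36, and none separated the groups. The median was 0.70 without T1D mouse 1, 0.36 without T1D mouse 1 and Lira mouse 3 and 2.30 without NGT mouse 1. The list was chosen by the study on these samples, so its direction is not independent evidence. Fos, the AP-1 subunit required for osteoclast differentiation (gene 14281), was the 1 member with an unadjusted p-value under 0.05 (0.774% over all tested genes), at 5.84, 6.88 and 3.48 CPM in NGT mice and 6.74, 9.27 and 19.0 CPM in STZ mice (log2 fold change 1.07 ± 0.41 SE, unadjusted p = 0.0258). The lowest STZ mouse was just under NGT mouse 2.

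The resorption enzymes Ctsk (cathepsin K) and Acp5 (tartrate-resistant acid phosphatase) varied more than 10-fold among NGT mice alone. Ctsk measured 30.4, 2.78 and 11.95 CPM in NGT mice and 5.06, 40.8 and 117 CPM in STZ mice, a log2 fold change of 1.77 ± 0.92 SE. Acp5 measured 35.3, 3.02 and 12.6 CPM against 3.97, 48.6 and 110 CPM, a log2 fold change of 1.68 ± 0.97 SE. NGT mouse 2 and Lira mouse 2 had the lowest values of their groups for both enzymes, and 5 of 6 STZ mice were above NGT mouse 3. Without T1D mouse 1 and Lira mouse 3 the log2 fold changes were 1.22 for Ctsk and 1.14 for Acp5, and with NGT mouse 1 left out both were 2.81. The receptor of RANKL, Tnfrsf11a, lay at 1.78, 0.619 and 0.792 CPM in NGT mice and 0.935, 2.02 and 7.67 CPM in STZ mice, and Csf1r, the M-CSF receptor, at 27.3, 7.19 and 10.1 CPM against 14.9, 24.0 and 106 CPM.

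Trem2 and the activating Fc receptors signal through ITAM adaptors in osteoclasts and macrophages, and these genes were highest in T1D mouse 1. Trem2 measured 1.40, 0.155 and 0.475 CPM in NGT mice and 0.389, 1.19 and 22.2 CPM in STZ mice, the last in T1D mouse 1. Its log2 fold change of 2.75 ± 1.45 SE was 0.37 without T1D mouse 1 and Lira mouse 3 and 3.86 without NGT mouse 1. The activating receptors Fcgr4, Fcgr1 and Fcgr3 and the inhibitory Fcgr2b had log2 fold changes of 3.11, 2.42, 1.60 and 1.60, with the highest value of each in T1D mouse 1 and the next highest in Lira mouse 3. Without these 2 mice they were 0.39 for Fcgr4, 0.10 for Fcgr3 and 0.50 for Fcgr2b, and Fcgr1 was 0.24 without T1D mouse 1. With NGT mouse 1 left out they were 4.90 for Fcgr4, 2.79 for Fcgr3, 2.66 for Fcgr2b and 3.38 for Fcgr1. In T1D mouse 1 the macrophage list had its highest mean, 5.31, against 2.04 to 3.51 in the other 8 mice. Socs1 and Socs3, inhibitors of JAK-STAT signaling, had log2 fold changes of 1.28 and 1.09 with SEs of 1.12 and 0.78. Without T1D mouse 1 and Lira mouse 3 they were -0.55 for Socs1 and 0.08 for Socs3, and without NGT mouse 1 they were 2.30 and 1.90. Nfatc1, the master factor of osteoclast differentiation, lay at 66.4, 80.0 and 66.4 CPM in NGT mice and 63.2, 70.9 and 95.2 CPM in STZ mice, a log2 fold change of 0.04 ± 0.16 SE. Tnfrsf11b (osteoprotegerin), the decoy receptor of RANKL, had a log2 fold change of -0.16 ± 0.80 SE, and Tnf of 0.07 ± 1.31 SE, and the sign of both changed with the method or the mice included.

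**Figure D5:**
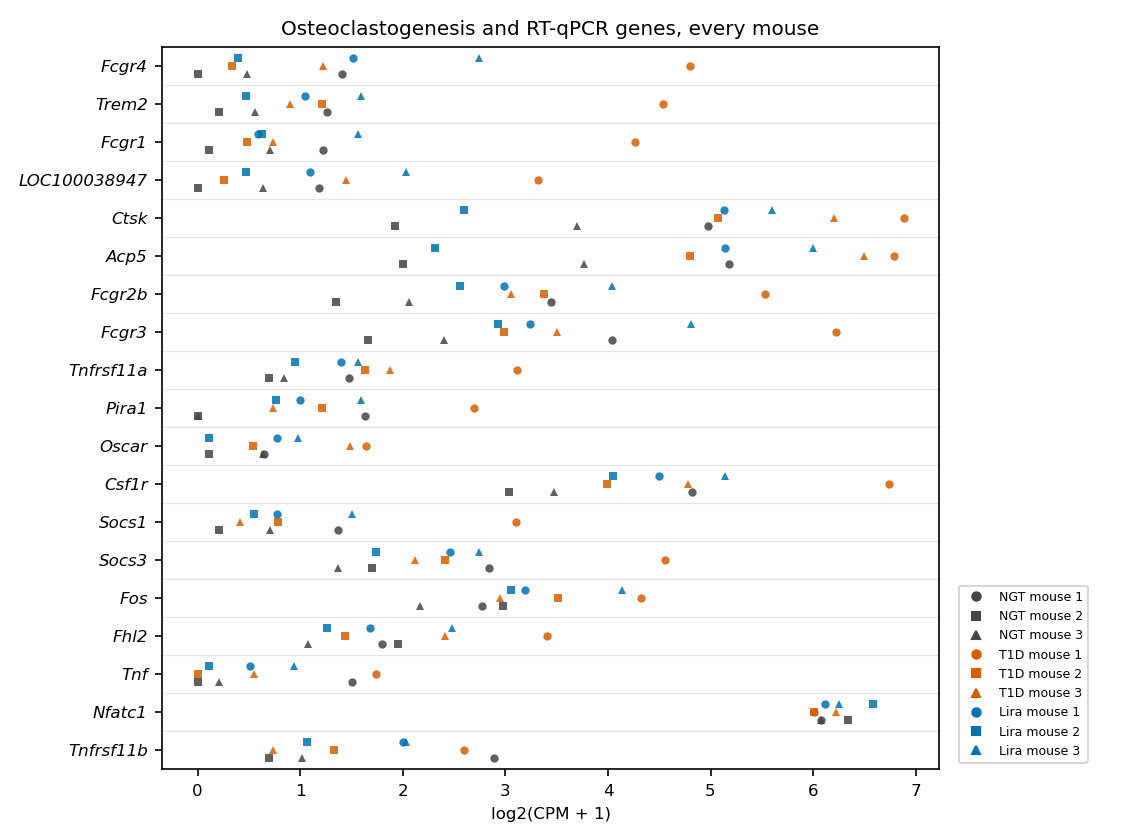
Of the 20 tested osteoclastogenesis and RT-qPCR genes, 19 are shown as log2(CPM + 1) in every mouse, ordered by log2 fold change from the highest, with grey for NGT, orange for T1D and blue for Lira and the symbol giving the mouse number. T1D mouse 1 is the highest of the 9 mice for most genes, NGT mouse 1 is above several STZ mice, and no gene shown separates the groups.

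Bone-forming genes did not separate STZ from NGT mice. Of 25 osteoblast and mineralization genes 21 were above 0 with a median of 0.36, which was 0.13 without T1D mouse 1, 0.02 without T1D mouse 1 and Lira mouse 3, and 0.75 or 0.19 when NGT mouse 1 or 2 was left out, and 0 had an unadjusted p-value under 0.05. Fibrillar collagens had a median of 0.24 and proteoglycans of 0.09, and both medians were below 0 without these 2 mice, at -0.36 and -0.29. With NGT mouse 1 left out they were 0.65 and 0.71, and with NGT mouse 2 left out 0.01 and -0.08. The list means of collagens were 5.79, 4.67 and 5.28 in NGT mice, 6.73, 5.09 and 4.84 in T1D mice and 4.74, 5.21 and 5.04 in Lira mice. Thus 1 T1D mouse stood above the rest. Of the Wnt list 21 of 27 genes were above 0 (median 0.34), and of the BMP and TGF-beta list 24 of 32 (median 0.22), and without T1D mouse 1 and Lira mouse 3 these medians were 0.05 and 0.10. When single mice were left out they ranged from 0.15 (T1D mouse 2) to 0.36 and from 0.10 (NGT mouse 2) to 0.44 (NGT mouse 1), and the Wnt median was 0.18 with NGT mouse 3 left out. Lrp6, a Wnt co-receptor, had a log2 fold change of -0.34 ± 0.14 SE with an unadjusted p of 0.0341, and Smad7 is described above.

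Metabolic lists bear most directly on insulin deficiency. Fatty acid oxidation had 21 of 34 genes below 0 (median -0.10), glycolysis 20 of 29 (median -0.14), and fatty acid and cholesterol synthesis 18 of 32 (median -0.06). When single mice were left out these medians ranged from -0.22 to 0.12, from -0.36 to 0.08 and from -0.21 to 0.33, so that each crossed 0. Oxct1, the enzyme that activates ketone bodies for use (gene 67041), measured 475, 689 and 611 CPM in NGT mice and 220, 301 and 634 CPM in STZ mice, a log2 fold change of -0.72 ± 0.31 SE with an unadjusted p of 0.0397. Pfkfb3, which drives glycolysis through fructose 2,6-bisphosphate, measured 130, 159 and 61.8 CPM against 99.5, 246 and 835 CPM. Txnip, a glucose-induced inhibitor of glucose uptake, measured 783, 873 and 691 CPM in NGT mice and 485, 1142 and 2064 CPM in STZ mice, a log2 fold change of 0.54 ± 0.38 SE, with T1D mouse 1 the lowest of all 9, and its log2 fold change was 0.29 without Lira mouse 1. In the insulin and IGF list, the IGF-binding proteins Igfbp3 and Igfbp4 had log2 fold changes of 0.58 ± 0.24 SE and 0.96 ± 0.38 SE, and Grb14, an inhibitor of the insulin receptor, of -0.66 ± 0.26 SE, each with an unadjusted p-value under 0.05 (0.774% higher and 0.817% lower over all tested genes) and with overlap. The glucose transport list had 7 of 12 genes above 0 (median 0.12), the atrophy and FoxO list 19 of 26 (median 0.10), and the muscle list 14 of 34 (median -0.08). These 3 medians also crossed 0 when single mice were left out, with ranges of -0.003 to 0.22, -0.12 to 0.21 and -0.31 to 0.04. In the list for the neuromuscular junction and denervation 16 of 22 genes were above 0 (median 0.43, and 0.26 without NGT mouse 3), and unadjusted p-values were under 0.05 for 1 with higher (0.774% over all tested genes) and 1 with lower values (0.817%). Ankrd1, a stress-responsive muscle protein, had a log2 fold change of 1.84 ± 0.80 SE, with overlap, and of 1.22 without T1D mouse 1. Hdac4, a transcriptional repressor, had 37.4, 63.1 and 62.5 CPM in NGT mice and 27.9, 34.3 and 41.0 CPM in STZ mice, with a log2 fold change of -0.64 ± 0.19 SE (unadjusted p = 0.00796) and an overlap through NGT mouse 1.

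Vps13a, one of 4 VPS13 proteins that move lipids between membranes (gene 271564), was lower in all STZ mice, with lower values in T1D than in Lira mice. It measured 37.9, 43.4 and 42.7 CPM in NGT mice, 23.8, 26.8 and 26.8 CPM in T1D mice and 36.8, 36.8 and 35.5 CPM in Lira mice. The T1D mice formed the low group and the Lira mice lay between them and the lowest NGT mouse. The log2 fold change was -0.41 ± 0.17 SE for all STZ mice, -0.68 for T1D and -0.18 for Lira against the shared NGT mice, and Lira against T1D gave an unadjusted p of 0.004. All 4 genes of the family were below 0 (median -0.14), but the median was -0.01 without T1D mouse 1, without NGT mouse 2 or without T1D mouse 1 and Lira mouse 3, and for Lira against NGT 3 of 4 were above 0 (median 0.07).

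Liraglutide was the known difference within the STZ group, and Lira against T1D mice had 0 genes (0%) with an adjusted p-value under 0.05 and 465 (3.33%) with an unadjusted one (edgeR's quasi-likelihood test, lowest adjusted p = 0.978). When single mice were left out, the unadjusted number ran from 254 (without Lira mouse 1) to 737 (without Lira mouse 3). With DESeq2 1 gene, Gpm6b, had an adjusted p under 0.05 (0.0367). Of the 114 genes without overlap between STZ and NGT mice, Vps13a and Ppp1r14b had an unadjusted p-value under 0.05 between Lira and T1D. Ppp1r14b had log2 fold changes of 0.66 for T1D and 0.21 for Lira against NGT. Some list medians lay on opposite sides of 0 for T1D and for Lira against the shared NGT mice, such as 0.67 for T1D and -0.35 for Lira in collagens, 1.60 and -0.27 in Schwann cell genes, and -0.27 and 1.30 in B cell genes, which was not tested. For the type I interferon list the 2 medians were 0.92 and 0.83, and for immediate-early genes 0.60 and 0.54.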

How the data were processed

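Gene-level RNA-seq of 1 tibia from each of 9 mice was analysed, 3 NGT, 3 T1D and 3 Lira. The deposited tables give estimated counts per gene, of which 30.2% were not whole and were rounded here, and FPKM values, which the authors had scaled to length and depth. Library preparation used oligo(dT) selection and DNA nanosphere sequencing. The submitters' processing notes name mm9, and the aligner, counter and strand setting are not given in the sources used here. Libraries held 13086373 to 16528394 counts, and the floor for a gene at 0 was set at 3 counts (0.182 to 0.229 CPM), which covers counting error only.

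Groups came from the labels. A gene needed 10 counts or more in 3 or more libraries (13960 of 18272). STZ and NGT means were compared with edgeR 4.0.16 in R 4.3.3 (TMM, quasi-likelihood test, Benjamini-Hochberg threshold 0.05; DEGs also required a fold change over 2). Lira against T1D used the fit of 3 group means. DESeq2 1.42.0, limma 3.58.1, other scalings and filters, the replicate block, leaving out each mouse, and limma on log2(FPKM + 1) or log2(FPKM + 0.1) were alternatives. Leaving out T1D mouse 1 and Lira mouse 3 together, and the muscle and erythroid shares as covariates, were added after the data were seen. As no gene was called, the leading genes are the 12 per direction with the lowest unadjusted p-values among genes of at least 5 CPM on average in either group whose STZ and NGT mice did not overlap. The genes the study names for osteoclastogenesis or RT-qPCR were added, and of each list described the 2 most abundant members and those of at least 5 CPM without overlap and with an unadjusted p under 0.05. All other genes named, such as Junb, Nr4a3, Irf7, Siglec1, Oxct1 and Hdac4, were chosen after their values were seen. Members and lists were chosen with earlier results of these data known. Labels do not say whether mice shared litters, cages or preparation days. The scripts were tested on simulated data. Single values of some list members are not reported here, although the members count in their lists.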

Additional observations from a re-analysis of the deposited data

Results flagged for a closer look

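Among 96 named genes and 44 list means, 140 in all, 23 had 1 of the 6 STZ mice far from the other 5 by Dixon's criterion. The criterion's chance rate of about 1 in 20 holds for independent items chosen without regard to their values. Some of these genes were picked after their values were seen and some are members of the lists, so the 23 cannot be set against it. Of the 23, 17 were in T1D mouse 1, 3 in Lira mouse 1, 2 in T1D mouse 2 and 1 in T1D mouse 3.

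T1D mouse 1 was far above the other STZ mice in several genes, most of them known from immune cells, at 1458 CPM for B2m, 494 CPM for Ctss, 120.2 CPM for Lgmn, 80.1 CPM for Ccl8, 27.6 CPM for Gm2260, 22.5 CPM for Socs3, 22.2 CPM for Trem2, 18.3 CPM for Fcgr1 and 9.19 CPM for Cd14. The same mouse had the highest mean log2(CPM + 1) for interferon-gamma response and antigen presentation (6.81), fibrillar collagens (6.73), proteoglycans (6.60), complement (6.36), macrophages (5.31) and matrix metalloproteinases (4.70). It was the lowest for Kank3, at 14.6 CPM, and for the VPS13 family, at 4.53.

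Lira mouse 1 was far above the rest for Cebpd at 248 CPM, Errfi1 at 169 CPM and the glucocorticoid and metallothionein list at 7.17. T1D mouse 2 was far above for Iffo1 at 20.8 CPM and for the Schwann cell and myelin list at 4.84, and T1D mouse 3 for Rps2 at 1129 CPM.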

How the results depend on the processing

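No alternative called a gene or a DEG between STZ and NGT mice. For Lira against T1D, DESeq2 called 1 gene and the 16 other alternatives run for it 0. The 114 genes without overlap became 156 in FPKM and 160 with library size, and ranged from 167 (without Lira mouse 3) to 1551 (without NGT mouse 1) when single mice were left out. The replicate block also called 0 genes, with 369 at an unadjusted p under 0.05 beside 222 without it. For the block, same-numbered mice had r of 0.583, 0.647 and 0.283 between NGT and T1D but -0.173, 0.727 and 0.012 between NGT and Lira, and nothing in the labels pairs them, so the block was not used as the main analysis.

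The sign changed for a few named genes. Tnfrsf11b, at -0.16, was 0.50 with limma-voom, 0.28 with the replicate block, 0.004 and 0.20 with limma on log2(FPKM + 1) and log2(FPKM + 0.1), and ran from -0.63 to 1.54 when single mice were left out. Tnf, at 0.07, was -0.008 with 3 group means, -0.13 with the muscle covariate and -0.49 to 0.31 when single mice were left out. The range was -0.046 to 0.14 for Nfatc1, the lowest without Lira mouse 2. Without T1D mouse 1 and Lira mouse 3, Socs1 was -0.55, Atp5b 0.001, Bst2 -0.065, B2m -0.14 and Lyz2 -0.52. The cause was not tested. Of 44 list medians, 19 kept their sign in all 14 alternatives. The wide spread between mice, with 3 NGT mice, limits what could pass the threshold.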

Other observations

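The following were picked after their values were seen and were not tested as groups. Erfe (erythroferrone), the hormone by which erythroid precursors lower hepcidin, was at 0.571, 0.541 and 0.554 CPM in NGT mice and at 0.779, 1.68 and 6.35 CPM (lowest, median, highest) in STZ mice, without overlap, and the highest was Lira mouse 1. The NGT levels are close to the limit that a count of 0 allows. The 4 erythroid markers summed to 2956 CPM in Lira mouse 1 and to 20057 CPM in Lira mouse 3, where Erfe was at 1.95 CPM. The cell source of Erfe was not tested.

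Zinc finger genes with names starting Zfp, Zkscan or Zscan made up 375 of the tested genes (2.69%). They held 5 of the 52 genes that were lower in all STZ mice, Zfp180, Zfp719, Zfp846, Zfp449 and Zfp78, and 1 of the 62 that were higher, Zfp143. Their median log2 fold change was -0.05, with 230 below 0, beside 0.04 over all tested genes.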
